A study of Macaca mulatta with 18 samples.

Results

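Short chromatin loops, those whose anchors start at most 100 kb apart on an autosome, were taken from the 10 kb loop lists of 2 fetal macaque brain tissues labelled CP and GZ. They numbered 496 in the CP list and 839 in the GZ list, 1335 of the 24447 loops of the series. The samples were wild-type rhesus macaque brain at embryonic day 84, and the labels do not spell out CP or GZ. Each tissue had 3 Hi-C libraries, which measure how often pairs of genomic positions touch, 1 ChIP-seq library for the protein CTCF and 1 DNase-seq library, which marks open chromatin. One loop list pooled the 3 Hi-C libraries of a tissue, and the CTCF and DNase libraries of both tissues carry the label RM01. With 1 list per tissue there is no replicate spread, so no difference below was tested. Intervals after a share are 95% Wilson intervals, intervals after a median are 95% order-statistic intervals, and both cover counting error only.

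Loops of this kind appear in Hi-C maps as pixels with more contacts than their surroundings. Many loops in mammals form when the ring-shaped cohesin complex extrudes chromatin until it meets CTCF, a zinc-finger protein, bound in convergent orientation at each anchor. Others join promoters and enhancers, which are usually open chromatin, or regions held together by Polycomb proteins, and these need not carry CTCF. Because the genome build of the lists, rheMac8, was not used here as sequence or annotation, loops are given by position and no gene or motif is assigned.

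In the CP list short loops were 5.43% (4.98 to 5.91) of 9138 autosomal loops, and in the GZ list 5.73% (5.37 to 6.12) of 14632. No listed loop spanned less than 50 kb and the median span was 80 kb in both lists. Whether the loop calling could list shorter ones was not examined. Spans were spread over the whole range: the CP list held 88 loops of 50 kb and 93 of 100 kb, and the GZ list 161 and 139. Chromosome 19 carried the most short loops per length, 5.96 per 10 Mb in CP and 9.32 in GZ, and chromosome 16 came next with 5.31 and 7.77. Chromosome 12 carried the fewest, 0.637 and 1.59.

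The contrast of a short loop was measured as observed contacts over the contacts expected from the donut-shaped neighbourhood of its pixel. Its median was 2.48 (2.42 to 2.57) in CP, with quartiles of 2.17 and 3.18, and 2.38 in GZ, with quartiles of 2.12 and 2.99. The loops rested on a median of 158 observed against 61.7 expected contacts in CP and 224 against 88.3 in GZ. Loops of over 100 to 200 kb had median ratios of 2.59 and 2.56, and loops of over 200 kb to 1 Mb 2.99 and 3.00. Values on either side of the limit were close: loops of 100 kb had a median ratio of 2.46 (n = 93) in CP and 2.37 (n = 139) in GZ, and loops of 110 kb, just outside it, 2.45 (n = 119) and 2.43 (n = 187).

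Most short loops of CP were also called in GZ, while fewer of the short loops in the longer GZ list were called in CP. A loop was counted as shared when the other list held a loop with both anchors within 1 bin of 10 kb. In CP 397 of 496 were shared, 80.04% (76.3 to 83.3), and in GZ 395 of 839, 47.1% (43.7 to 50.5). When the GZ short loops were cut to 496 by their ratio, the shares were 67.9% in CP and 67.1% in GZ, and when cut by observed contacts 51.4% and 50.2%. Loops of over 100 to 200 kb were shared at 81.1% and 54.0%, and the short class was the lower one in 11 of 20 autosomes in CP and 14 of 20 in GZ. Shared short loops had the higher ratios, with a median of 2.61 against 2.15 for loops in 1 list only in CP and 2.96 against 2.18 in GZ. Loops are called for their contrast, and no short loop had a ratio below 1.78 in CP or 1.76 in GZ. Being in both lists and having a high ratio are therefore not independent.

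CTCF was bound at both anchors of a minority of short loops, and less often than at longer ones. In CP 159 short loops had a CTCF peak at both anchors, 126 at 1 anchor and 211 at neither, which is 32.1% (28.1 to 36.3), 25.4% and 42.5%. In GZ the counts were 365, 246 and 228, or 43.5% (40.2 to 46.9), 29.3% and 27.2%. The GZ peak list was also the longer, with 30883 CTCF peaks against 22044 in CP, and the difference between the tissues depended on which peaks were used. With the CP peaks in both, CTCF was at both anchors of 32.1% of CP and 35.6% of GZ short loops, and with the GZ peaks in both of 38.3% and 43.5%. With each tissue given the peaks of the other the order turned, to 38.3% in CP and 35.6% in GZ, while peaks found in both tissues gave 31.5% and 34.3% (31.2 to 37.6). Loops of over 100 to 200 kb had CTCF at both anchors in 49.9% of cases in CP and 57.4% in GZ, and lacked it at both in 18.0% and 13.2%. In each of the 20 autosomes, in both lists, the short class had the lower share with CTCF at both anchors and the higher share with none. The chromosomes share their libraries and are no replicates, so this count is a description.

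Loops at the short end of the range had CTCF at both anchors less often than those at the long end. In CP the share with CTCF at both anchors was 14.8% (8.84 to 23.7) at 50 kb, 20.9% at 60 kb, 45.8% at 70 kb and 39.8% (30.4 to 49.9) at 100 kb. The CP loops lacking CTCF at both anchors made up 65.9% of the 50 kb loops and 31.2% of the 100 kb loops. In GZ the share with CTCF at both anchors was 37.9% (30.8 to 45.6) at 50 kb and 54.0% (45.7 to 62.0) at 100 kb. It did not rise steadily between them, with 39.6% at 60 kb, 47.5% at 70 kb, 43.4% at 80 kb and 41.25% (33.9 to 49.0) at 90 kb. The GZ loops lacking CTCF at both anchors made up 32.9% at 50 kb, 36.2% at 60 kb and 16.5% at 100 kb.

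**Figure D1:**
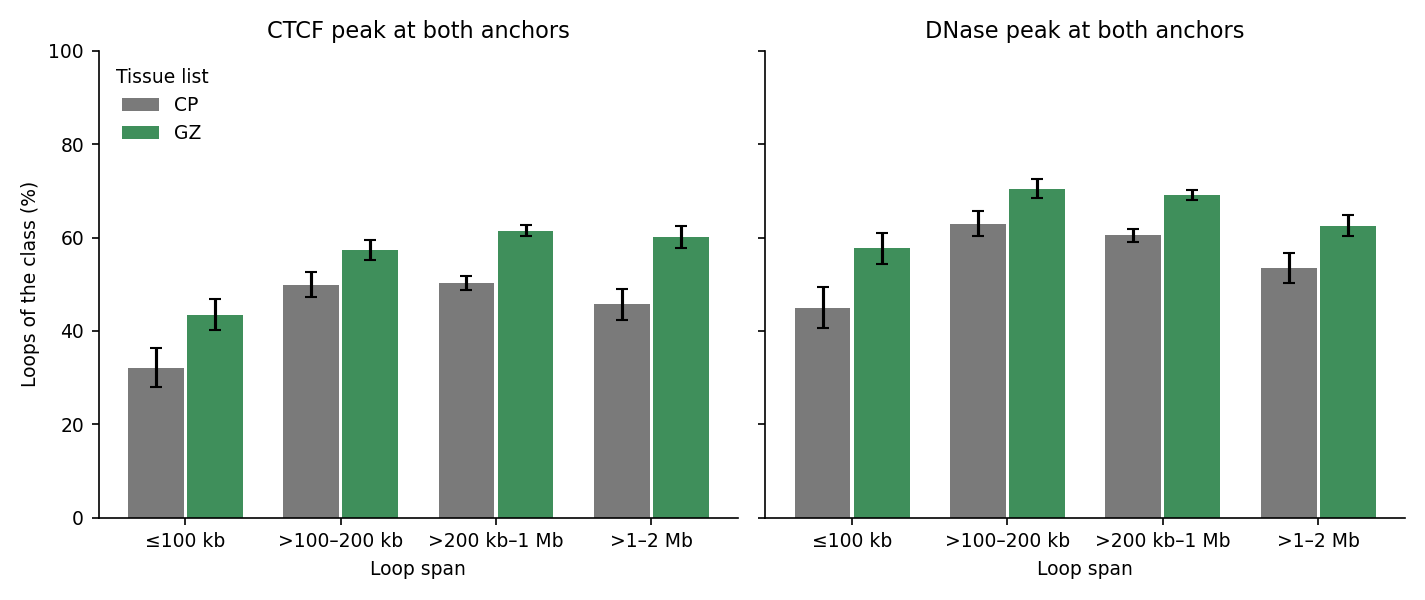
Share of loops (y axis, %) with a CTCF peak (left) or a DNase peak (right) of the same tissue at both 10 kb anchors, by loop span (x axis), in the CP list (grey) and the GZ list (green). Bars are shares and whiskers their 95% Wilson intervals; the class of at most 100 kb is the lowest in each list for both marks, at 32.1% and 43.5% for CTCF and 45.0% and 57.7% for DNase.

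The lower CTCF share of short loops held under each peak setting that was tried. With anchors widened by 10 kb on each side it was 45.2% for short loops against 68.3% for loops of over 100 to 200 kb in CP, and 61.7% against 76.7% in GZ. With peaks of the stronger part of each list, those at or above its median fold enrichment, it was 8.87% against 18.8% in CP and 28.2% against 34.7% in GZ. With peaks found in both tissues it was 31.5% against 47.6% and 34.3% against 44.0%. Among loops called in both lists it was 33.8% against 53.3% in CP, and in GZ 158 of 395 against 64.6%. Among loops called in GZ only, the shares lay close together, 46.6% (42.0 to 51.3) for short loops and 48.9% (45.7 to 52.2) for the next class.

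Where CTCF was bound at short-loop anchors, its peaks had medians close to those at longer loops. The strongest peak per bound anchor had a median fold enrichment, as the authors' peak caller gave it, of 7.37 (n = 444) in CP, beside 7.77 in loops of over 100 to 200 kb. In GZ these medians were 20.3 (n = 976) and 20.05. Fold values of the 2 tissues come from separate libraries and were not set against each other. Over loops with CTCF at both anchors, the loop's ratio and the fold at its weaker anchor had a Spearman correlation of 0.193 in CP (n = 159) and 0.293 in GZ (n = 365), across loops that share their libraries.

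CTCF peaks stood at the anchors and just outside them more than between them. In CP 44.8% of short-loop anchor bins held a CTCF peak, against 7.53% (6.68 to 8.49) of the bins between the anchors and 7.39% of all autosomal bins. In the first bin outside an anchor the share was 24.2% (21.6 to 27.0), and in the first bin inside it 8.97% (7.35 to 10.9). GZ had the same order, with 58.2% of anchor bins, 31.2% of the first bins outside and 16.1% of the first bins inside. There the bins between the anchors lay above the autosomal level, at 12.9% (12.1 to 13.9) against 10.2% of all autosomal bins. From 20 to 100 kb outside, the share stayed between 12.4% and 14.8% in CP and between 17.2% and 19.9% in GZ, above the level of the second bin inside, 7.26% and 12.5%. Loops of over 100 to 200 kb showed the same asymmetry, with 25.5% of first bins outside and 12.8% of first bins inside in CP.

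**Figure D2:**
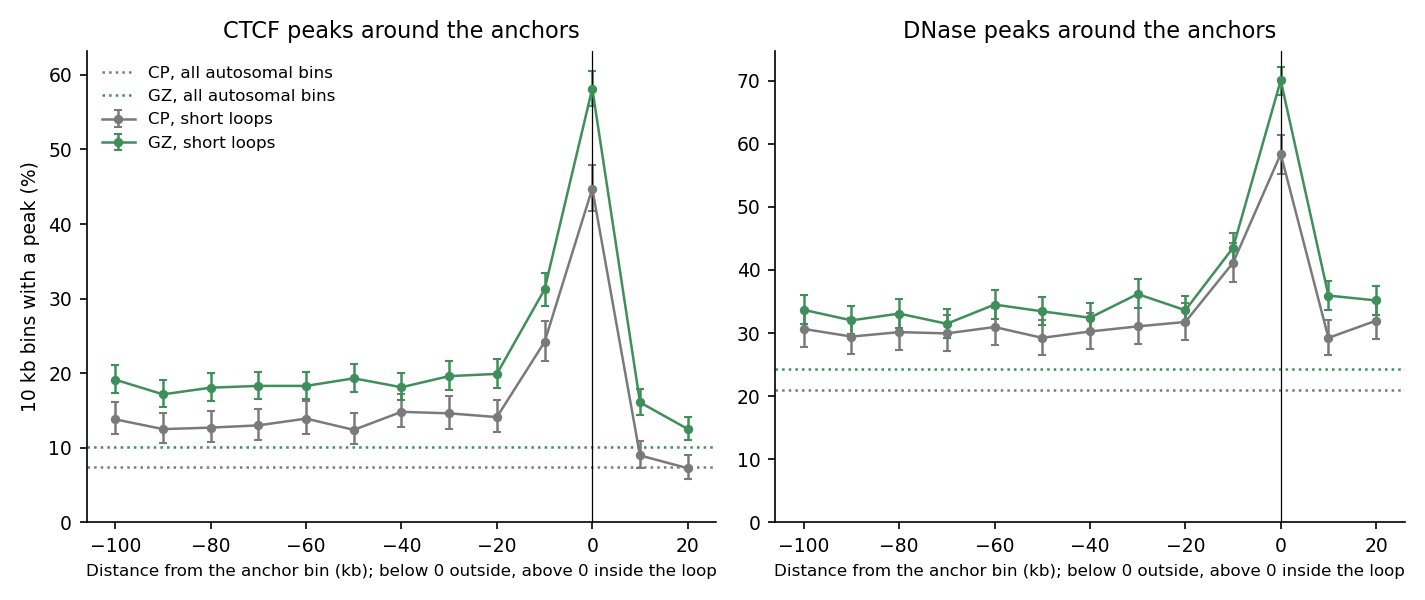
Share of 10 kb bins (y axis, %) with a CTCF peak (left) or a DNase peak (right) by distance from a short-loop anchor (x axis, kb; below 0 outside the loop, above 0 inside), with both anchors of each loop combined and oriented. Points carry 95% Wilson intervals (CP grey, n = 992 anchors; GZ green, n = 1678) and dotted lines are all autosomal bins; CTCF falls from 44.8% at the anchor to 8.97% one bin inside in CP, against 24.2% one bin outside.

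Open chromatin was likewise less frequent at short-loop anchors than at longer ones, and it was above the autosomal level inside the loops. A DNase peak lay at both anchors of 223 short loops in CP, 45.0% (40.6 to 49.4), and of 484 in GZ, 57.7% (54.3 to 61.0). In loops of over 100 to 200 kb these shares were 63.0% and 70.5%, and the short class was lower in 19 of 20 autosomes in both lists. Among loops called in GZ only, the shares lay close together. They were 67.1% (62.6 to 71.3) for short loops and 70.4% (67.3 to 73.3) for the next class. Shared loops in GZ had 47.1% against 70.5%. In CP the gap was present in both sets, 47.4% against 65.1% for shared loops and 35.4% against 54.1% for loops in CP only. Between the anchors of short loops 30.6% of bins held a DNase peak in CP and 35.3% in GZ, against 20.98% and 24.3% of all autosomal bins, and 32.7% and 35.8% of the 1 to 5 bins outside. Loops with CTCF at both anchors were the more open inside, with 38.9% of bins between in CP and 41.5% in GZ, while loops lacking CTCF had 23.3% and 24.3%, near the autosomal level.

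CTCF and open chromatin at the anchors were counted together as well. Of the short loops with CTCF at both anchors, 89.9% in CP and 87.9% in GZ also had DNase peaks at both. Of those lacking CTCF, 24 in CP and 40 in GZ had DNase peaks at both anchors, and 132 and 126 had neither mark at either anchor. The last set made up 26.6% (22.9 to 30.7) of short loops in CP and 15.0% (12.8 to 17.6) in GZ, against 6.89% and 4.80% of loops of over 100 to 200 kb. Going further, 51 short loops in CP and 38 in GZ had no peak of either kind at the anchors or between them, 10.3% and 4.53%, where the next class had 0.774% and 0.620%; a shorter interior also has fewer bins in which a peak could lie.

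The loops with neither mark at their anchors lay in surroundings that did hold peaks, though fewer than around short loops as a whole. Their interiors held fewer than the autosomal level. In the 1 to 5 bins outside their anchors, 22.8% of bins had a DNase peak and 10.2% a CTCF peak in CP, beside 20.98% and 7.39% of all autosomal bins. In GZ these shares were 24.6% and 13.7%, beside 24.3% and 10.2%. The same bins around all short loops held more, 32.7% and 16.0% in CP and 35.8% and 21.6% in GZ. Between the anchors of the loops with neither mark, 16.7% (14.2 to 19.5) of bins had a DNase peak and 4.204% (3.01 to 5.84) a CTCF peak in CP. The GZ shares between were 18.3% (15.7 to 21.2) and 6.94% (5.33 to 8.99). The other tissue's CTCF was likewise missing at both anchors of 123 of the 132 loops in CP and 125 of the 126 in GZ. Their expected contacts were low, 39.8 in CP and 47.1 in GZ by median, against 81.5 and 110.3 for loops with CTCF at both anchors. Whether this lower level of contacts bears on the missing peaks was not tested.

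The highest contrasts belonged to short loops without CTCF. By number of anchors with CTCF, from both to 1 to neither, the median ratio was 2.35, 2.38 and 2.89 in CP and 2.42, 2.28 and 2.63 in GZ. A ratio over 5 was reached by 35 short loops in CP, of which 32 lacked CTCF at both anchors, 3 had it at 1 and 0 at both. In GZ 36 loops reached it, 30 of them without CTCF, 4 with CTCF at 1 anchor and 2 with CTCF at both. All 35 in CP and 34 of the 36 in GZ were shared between the lists. The loops over 5 had low expected contacts, with medians of 31.4 in CP and 43.0 in GZ, against 61.7 and 88.3 for all short loops. With the loops over 5 left out, the median of the loops lacking CTCF was 2.69 in CP and 2.44 in GZ, so that in GZ it was close to that of the loops with CTCF at both anchors.

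**Figure D3:**
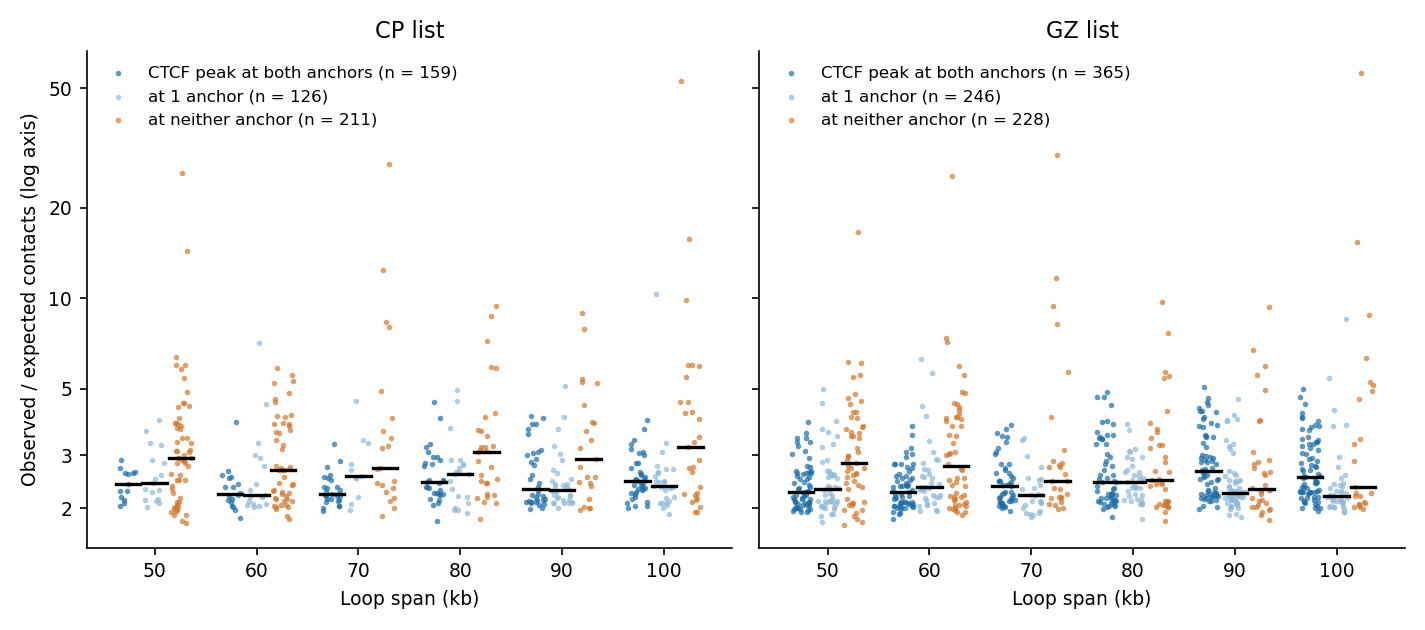
Observed over expected contacts of every short loop (y axis, log scale) by span (x axis, kb) in the CP list (left) and GZ list (right), coloured by the number of anchors with a CTCF peak and offset sideways by that class. Black bars are medians per span and class; nearly all points above 5 are loops without CTCF (32 of 35 in CP and 30 of 36 in GZ).

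The single loops with the highest ratios recurred in both tissues. The highest of all, at chr6:143170001-143280000 (rheMac8, span 100 kb), had 188 contacts against 3.55 expected in CP, a ratio of 52.9, and 269 against 4.80 in GZ, a ratio of 56.0. It had no CTCF peak at its anchors or between them in either tissue and lay inside 3 longer loops in CP and 4 in GZ. Next came chr17:9020001-9100000 (70 kb), with 79 contacts against 2.82 expected in CP, a ratio of 28.0, and 91 against 3.04 in GZ, a ratio of 29.98. It also lacked CTCF and held 12 DNase peaks between its anchors in CP and 10 in GZ. Overlapping it, chr17:8980001-9090000 (100 kb) held 16 DNase peaks in CP and 15 in GZ and had ratios of 9.89 and 8.77. At chr13:85600001-85660000 (50 kb) 254 contacts against 9.73 expected gave a ratio of 26.1 in CP. A GZ loop 1 bin longer had 229 contacts against 8.99 and a ratio of 25.5. With so few expected contacts these ratios rest on small denominators, and the rheMac8 assembly was not examined at these positions.

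The loops with the most contacts and those with the most open interiors were again without CTCF at both anchors. The loop chr17:2300001-2360000 (50 kb) had 4026 contacts against 1212 expected in CP and 3990 against 1114 in GZ, and chr5:83210001-83280000 (60 kb) had 3992 against 828 and 3872 against 970. Their expected contacts were far above the median of 61.7 in CP and 88.3 in GZ, and so were those of 592 and 611 at chr2:7090001-7150000. Whether the rheMac8 assembly is correct at these positions was not examined, and an error there would change what their contacts and ratios measure. Near the first of them GZ alone had a loop at chr17:2350001-2410000 with 5029 contacts against 2786, a ratio of 1.81.
A group of 4 overlapping loops lay on chromosome 2, in identical bins in both tissues. The loop chr2:7110001-7220000 (100 kb) held 30 DNase peaks between its anchors in both tissues, with ratios of 15.7 in CP and 15.4 in GZ, and chr2:7090001-7190000 (90 kb) held 29 and 32, with ratios of 2.15 and 2.24. Another, chr2:7090001-7150000 (50 kb), had 2031 contacts in CP and 2125 in GZ, with ratios of 3.43 and 3.48. The last, chr2:7140001-7220000 (70 kb), which was added after its values were seen, had ratios of 8.34 and 9.45 and 15 and 14 DNase peaks between its anchors. Loops without CTCF overlapped another short loop in 30.3% (24.5 to 36.8) of cases in CP and 23.2% in GZ, against 5.66% (3.01 to 10.4) and 6.58% of loops with CTCF at both anchors.

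Sharing between the tissues ran in opposite directions by CTCF in the 2 lists, with the smaller gap in CP. In CP 134 of 159 short loops with CTCF at both anchors were shared, 84.3%, and 160 of 211 without CTCF, 75.8%. In GZ 158 of 365 with CTCF at both anchors were shared, 43.3% (38.3 to 48.4), and 144 of 228 without CTCF, 63.2% (56.7 to 69.2). The GZ loops with neither CTCF nor DNase at the anchors were shared in 99 of 126 cases, 78.6%, while the GZ loops with DNase but no CTCF at both anchors were shared in 13 of 40, 32.5%. Of the 207 loops with CTCF at both anchors called in GZ only, 158 also had CP CTCF peaks at both anchors, 76.3%. Over all 839 GZ short loops, which include loops without CTCF, this share was 35.6%. The share for shared GZ loops with CTCF is not given here, so the 76.3% cannot be called particular to loops in GZ only. The highest-ratio loops without CTCF in 1 list only had far lower ratios than the highest shared ones: in CP chr18:49980001-50040000 had 50 contacts and a ratio of 4.39, and chr14:126260001-126340000 had 53 and 3.99. In GZ chr1:12940001-13010000 had 112 contacts and a ratio of 5.96, and chr15:16530001-16600000 had 249 and 5.57.

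Where both lists placed a short loop in identical bins, contrast was higher in GZ where CTCF was bound and nearly equal where it was not. There were 328 such short loops, and their GZ ratio divided by their CP ratio had a median of 1.09 (1.06 to 1.13), with 223 of 328 above 1. The 107 with CTCF at both anchors in both tissues had a median quotient of 1.26 (1.199 to 1.30), with 99 above 1, and their median ratio was 2.49 in CP and 3.20 in GZ. For the 119 lacking CTCF at both anchors in both tissues the median quotient was 0.991 (0.970 to 1.02), with 57 above 1, and the median ratios were 3.32 and 3.47. The 102 other loops lay between, at 1.08 (1.03 to 1.14). The observed contacts moved in the same order, with a GZ to CP quotient of 1.63 in the loops with CTCF and 1.13 in those without, and the expected contacts did so less, 1.32 and 1.14.

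The gap among short loops was of like size within a window of CP ratio. The CP ratio is also the denominator of the quotient, so a cut on it selects on the quotient as well. Such a cut cannot decide whether the sets differ at equal contrast. Among short loops whose CP ratio was 2 to 3, the median quotient was 1.27 (1.19 to 1.32) for the 87 with CTCF and 1.01 (0.969 to 1.04) for the 42 without. In loops of over 100 to 200 kb the order was the same but closer, 1.16 (1.14 to 1.18) with CTCF (n = 453) and 1.02 (0.985 to 1.07) without (n = 79). At a CP ratio of 2 to 3 these medians were 1.16 (1.13 to 1.18; n = 261) and 1.08 (1.03 to 1.14), with 29 of 36 loops without CTCF above 1. Each tissue's value is that of 1 pooled list, so a difference in depth or library preparation and a difference between tissues cannot be told apart.

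**Figure D4:**
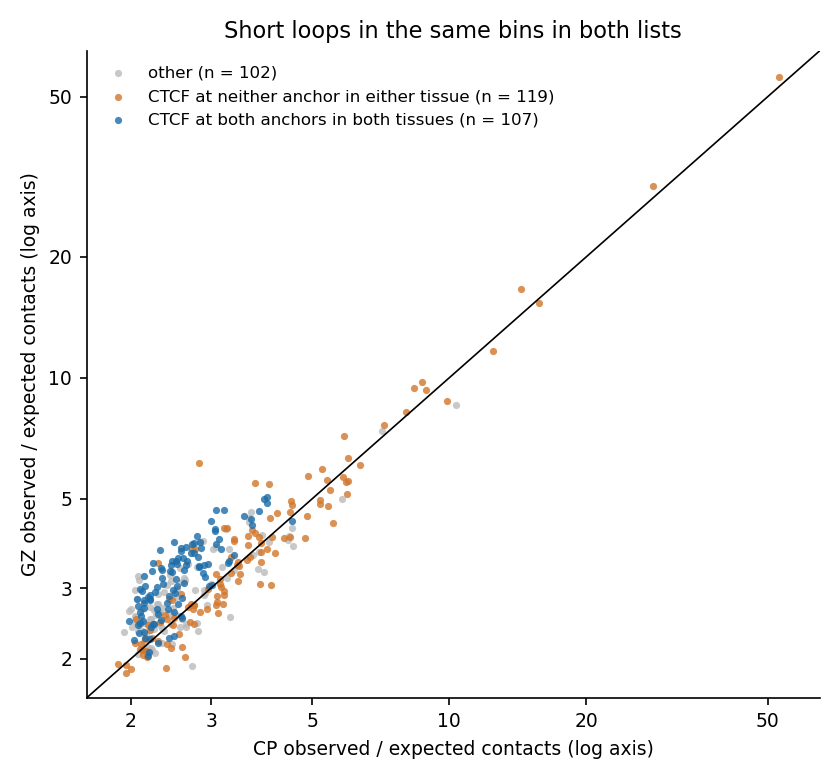
GZ (y axis) against CP (x axis) observed over expected contacts, both on log scales, for the 328 short loops called in identical bins, coloured by CTCF at the anchors; the line marks equal values. Of the loops with CTCF at both anchors in both tissues 99 of 107 lie above the line, and of those without CTCF 57 of 119.

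Most short loops were nested inside a longer one. Both anchors lay within the outer edges of a loop of over 100 kb to 2 Mb in 341 of 496 cases in CP, 68.8% (64.5 to 72.7), and 722 of 839 in GZ, 86.1% (83.5 to 88.2). With the longer loops taken from the other list instead, the order of the tissues turned, to 86.3% of CP and 70.0% of GZ short loops. At the median the smallest loop around a short one spanned 320 kb in CP and 260 kb in GZ, and each nested short loop lay inside 2 and 3 longer loops at the median. Inside loops of over 200 kb to 2 Mb, a size that can hold both classes, short loops lay in 62.1% (57.7 to 66.3) of cases in CP and loops of over 100 to 200 kb in 68.9% (66.3 to 71.4). In GZ these shares were 80.5% and 84.2%. Few longer loops held a short one: 620 of 6478 loops of over 100 kb to 2 Mb in CP, 9.57%, and 1732 of 10585 in GZ, 16.4%.

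How a short loop sat in its enclosing loop differed with CTCF. An anchor bin was shared with an enclosing loop by 163 short loops in CP, 32.9%, and 446 in GZ, 53.2%, about as often on the left (95 and 268) as on the right (89 and 254). Of the loops with CTCF at both anchors 53.5% (45.7 to 61.0) in CP and 78.1% in GZ shared an anchor bin in this way, and of those without CTCF 10.4% (6.99 to 15.3) and 17.1%. The smallest enclosing loop was also nearer in size for loops with CTCF, at 240 kb in CP and 230 kb in GZ by median, than for loops without, 450 kb and 345 kb. In 25 cases in CP and 51 in GZ the short loop met a second loop end to end and another loop joined their outer anchors.

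**Figure D5:**
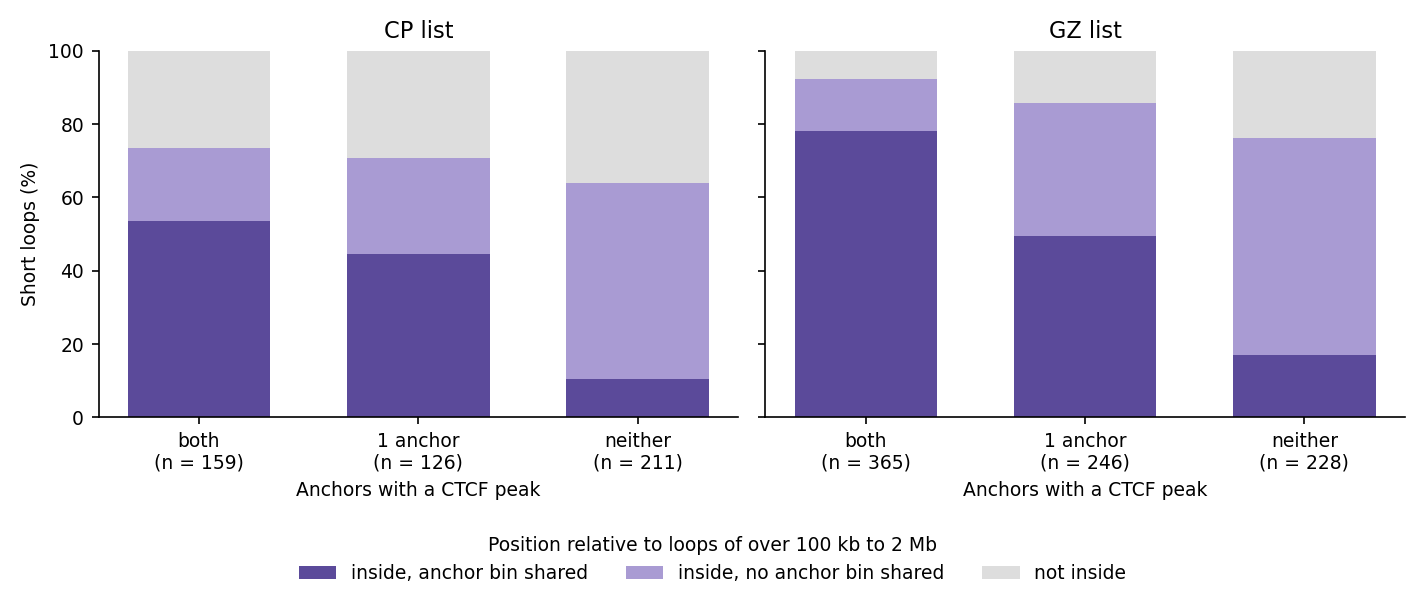
Share of short loops (y axis, %) inside a loop of over 100 kb to 2 Mb that uses the same bin for an anchor (dark), inside such loops without a shared anchor bin (light) or not inside any (grey), by the number of anchors with a CTCF peak (x axis), in CP (left) and GZ (right). The dark part is 53.5% in CP and 78.1% in GZ with CTCF at both anchors, and 10.4% and 17.1% without CTCF.

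The most deeply nested loops had ratios below the median of their lists. In CP chr6:85420001-85490000 (60 kb) lay inside 15 longer loops, with 74 contacts and a ratio of 2.05, and had 82 contacts and a ratio of 2.19 in GZ. In GZ chr7:52000001-52070000 (60 kb) lay inside 19, with 324 contacts and a ratio of 2.00. It had a CTCF peak at each anchor and 3 between them, and was not in the CP list. Loops with a ratio over 5 were nested in 17 of 35 cases in CP and 22 of 36 in GZ.

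Domain boundaries, called from the same Hi-C libraries in bins of 40 kb, numbered 2584 in the CP list and 2806 in the GZ list. Their share of all autosomal bins is not given here, so the shares below are set only against longer loops. A boundary bin overlapped an anchor in 12.1% (9.51 to 15.3) of cases in CP and 14.1% (11.9 to 16.6) in GZ, against 11.9% and 13.6% of loops of over 100 to 200 kb. It overlapped the span in 17.1% and 17.2%, against 19.0% and 22.1%. In CP a boundary bin overlapped an anchor of 18.2% of the loops with CTCF at both anchors and 6.64% of those without, and in GZ of 16.7% and 13.2%.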

How the data were processed

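The 10 kb HiCCUPS loop lists, as deposited, gave observed contacts as counts, expected contacts as a signal from 4 neighbourhoods of the pixel, and FDR values (q-values) per loop; 1 list pooled the 3 Hi-C libraries of a tissue. Domain boundaries carried a score, deposited by the authors with 40 kb bins. CTCF peaks came from MACS2 with a score, a fold ratio and −log10 p and q, per the file format and the submitters' processing notes; DNase peaks came from HOMER with a normalized tag signal, score, fold ratio and p-value, per the file headers. The submitters' processing notes also name HiC-Pro, Bowtie2, SAMtools and deepTools, with rheMac8 as the build; no versions are given there. The Hi-C contact files were revised after the first deposit, per the labels, and which revision the lists rest on is not stated. The RNA table was not used here.

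The lists held 22044 CTCF peaks in CP and 30883 in GZ, and 71800 and 83028 DNase peaks. A peak was counted at an anchor or in a bin when it overlapped it by at least 1 bp; bins between exclude the anchor bins. Loops were named by fixed rules: per list, the 3 highest ratios, the 3 with most contacts, the 3 with most DNase peaks between the anchors, the 2 highest ratios among loops in 1 list only without CTCF, and the loop inside the most longer loops. Alternatives changed the span limit, the sharing tolerance, the expected value, the peak sets, the anchor width and the enclosing loops. The members and the rules were chosen with earlier results of these data known. Nothing shows how much the 3 libraries of a tissue differ at these loops. Counting functions were tested on 500 made-up loops, where 14 of 14 planted counts were recovered. Python 3.11.15, numpy 2.4.6, pandas 2.3.3 and scipy 1.17.1 were used.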

Additional observations from a re-analysis of the deposited data

How the results depend on the processing

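Of 84 alternative values, 39 were classed as the same and 45 as moved. A reported value with an interval was the same when the alternative lay inside that interval. Loop counts have no interval, so their classing does not rest on one. Values are given for CP and then GZ. A limit of 120 kb raised the counts from 496 and 839 to 737 and 1218 short loops, although this was classed as the same. A limit of 80 kb left 314 and 540 short loops, with CTCF at both anchors in 28.0% of the CP loops and DNase at both in 36.9%; at 120 kb the latter was 50.5%. Requiring identical bins gave shared shares of 66.1% and 39.1%, and lists of equal length by ratio 67.9% and 67.1%, or 51.4% in CP by contacts. The median ratio was 2.15 and 2.05 against the largest of the 4 expected values, and 2.39 in CP against the lower-left one. Anchors widened by 10 kb raised CTCF at both to 45.2% and 61.7% and DNase at both to 67.3% and 79.7%. The stronger part of the peaks gave 8.87% and 28.2% for CTCF, 34.5% and 44.9% for DNase, 3.29% and 6.19% for CTCF between and 18.6% and 22.2% for DNase between. The other tissue's peaks gave CTCF at both in 38.3% and 35.6%, and peaks found in both tissues 34.3% in GZ. Without the bins next to the anchors CTCF between was 11.5% in GZ. The next values were chosen after seeing the data: among loops with a DNase peak at an anchor, CTCF was at both anchors in 44.7% and 52.5% of short loops and in 54.3% and 60.9% of loops of over 100 to 200 kb. Nested shares were 98.4% and 99.5% in loops of any span and 62.7% and 81.4% in loops of up to 1 Mb. In 50.8% and 64.6% of cases a short loop lay inside at least 1 longer loop without sharing an anchor bin with it. Some of these short loops did share a bin with another enclosing loop. In the other tissue's loops the nested shares were 86.3% and 70.0%, so that the order of the lists turned with the list that supplied the longer loops. Boundaries widened by 40 kb overlapped an anchor of 28.8% and 32.2% of short loops. The shares for spans were the same, and boundaries that wide leave little room to lie between the anchors alone. The cause of these moves was not tested. No paired analysis was possible because each loop list pools 3 libraries and carries no replicate number, and for the same reason no library could be left out.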

Other observations

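Outside the autosomes, the X chromosome held 30 short loops in the CP list and 37 in the GZ list. They entered no share above.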
